A study of Mus musculus with 4 samples.

Results

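MHC class I antigen presentation was followed through 10 genes chosen by name among the 53379 genes of a count table. They were the class I heavy chains H2-D1, H2-K1 and H2-T23, the light chain gene B2m, the peptide loading genes Tap1, Tap2 and Tapbp, and the immunoproteasome subunits Psmb8, Psmb9 and Psmb10. The samples were RNA-seq libraries of cultured mouse cortical astrocytes, 2 labelled Npas3-/- and 2 labelled wild type (WT), where Npas3 encodes a bHLH-PAS transcription factor. All were of the C57BL/6 strain, came from cortex taken at postnatal day 0, were grown in serum-containing medium with shaking to remove neurons and other cells, and were harvested at day 14 in vitro. Neither the Npas3 allele nor the origin of the replicates (distinct litters, mice or flasks) is described in the labels. The p-values below therefore measure spread among 4 samples that could be purely technical.

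Class I molecules carry short peptides from the cell's own proteins to its surface, where CD8 T cells read them. The proteasome cuts proteins into peptides, and in the immunoproteasome, which interferons induce, the catalytic subunits encoded by Psmb8, Psmb9 and Psmb10 take the places of the constitutive ones. The TAP transporter, made of the Tap1 and Tap2 products, pumps the peptides into the endoplasmic reticulum, where tapasin (Tapbp) helps to load them onto a heavy chain paired with beta-2 microglobulin (B2m). Brain cells at rest carry little class I, and astrocytes raise it when exposed to interferon.

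On mm10, 8 of the 10 genes lie on chromosome 17, in and around the mouse MHC, B2m lies on chromosome 2 and Psmb10 on chromosome 8. Tap1 and Psmb9 are read in opposite directions from start sites 226 bases apart. Promoter windows from RefSeq (GRCm38.p6, from 250 bases before to 50 bases after a gene's start) were found for 9 of the 10 genes, and for H2-K1 there were 2. Of these, 5 are printed 5′ to 3′ because they belong to the most abundant heavy chains (H2-D1 and H2-K1), the heavy chain with the largest fold change (H2-T23), the light chain, and the stretch that Tap1 shares with Psmb9, of which 275 bases fall in both windows. Capitals mark matches, on either strand, to the form GAANNGAAA of the interferon response element (read here as TTTCACTTC) and to the NF-kB consensus.
H2-D1 (chr17:35262844-35263143, plus strand): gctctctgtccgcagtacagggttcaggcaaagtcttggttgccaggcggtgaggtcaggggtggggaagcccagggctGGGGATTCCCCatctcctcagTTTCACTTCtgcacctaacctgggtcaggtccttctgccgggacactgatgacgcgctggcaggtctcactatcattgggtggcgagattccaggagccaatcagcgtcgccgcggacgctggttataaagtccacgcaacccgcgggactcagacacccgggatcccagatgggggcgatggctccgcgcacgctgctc
H2-K1 (chr17:34000298-34000597, minus strand): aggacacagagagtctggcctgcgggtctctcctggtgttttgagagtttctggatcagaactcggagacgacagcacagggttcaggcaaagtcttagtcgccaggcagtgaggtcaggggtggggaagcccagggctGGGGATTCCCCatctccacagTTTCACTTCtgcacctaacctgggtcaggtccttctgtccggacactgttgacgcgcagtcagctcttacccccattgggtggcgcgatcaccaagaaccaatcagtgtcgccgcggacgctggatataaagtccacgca
H2-T23 (chr17:36032652-36032951, minus strand): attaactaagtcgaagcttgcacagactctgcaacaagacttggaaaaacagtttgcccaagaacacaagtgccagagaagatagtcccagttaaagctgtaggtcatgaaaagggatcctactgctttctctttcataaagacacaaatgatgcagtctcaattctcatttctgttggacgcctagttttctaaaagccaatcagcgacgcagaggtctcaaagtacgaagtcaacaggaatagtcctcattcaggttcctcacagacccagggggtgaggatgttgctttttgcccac
B2m (chr2:122147437-122147736, plus strand): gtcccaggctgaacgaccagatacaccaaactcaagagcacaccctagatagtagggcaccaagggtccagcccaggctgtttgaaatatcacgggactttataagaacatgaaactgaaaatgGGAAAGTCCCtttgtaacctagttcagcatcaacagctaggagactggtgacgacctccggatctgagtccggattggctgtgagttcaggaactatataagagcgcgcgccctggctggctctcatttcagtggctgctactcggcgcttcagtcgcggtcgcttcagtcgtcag
Tap1 (chr17:34187306-34187605, plus strand): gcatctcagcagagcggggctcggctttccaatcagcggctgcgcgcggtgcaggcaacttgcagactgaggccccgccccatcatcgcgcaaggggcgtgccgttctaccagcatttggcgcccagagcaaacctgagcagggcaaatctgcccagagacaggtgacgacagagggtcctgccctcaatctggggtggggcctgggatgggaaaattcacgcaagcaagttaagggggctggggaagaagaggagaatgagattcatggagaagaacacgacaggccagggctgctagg

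The H2-D1 and H2-K1 windows held both motifs in the same order, the NF-kB match at positions -171 to -161 from the H2-D1 start and -111 to -101 from the H2-K1 start, followed by the interferon match at -150 to -142 and -90 to -82. At each NF-kB site of these heavy chains, overlapping matches were found on both strands. Of the 9 genes with a window, 2 held the interferon motif in the form searched, GAANNGAAA, which 7.52% of all 32851 mouse windows held. Forms with other spacing were not searched, such as gaaactgaaa in the B2m window and tttctctttc in the H2-T23 window. A window without a match is therefore not shown to lack such an element. The NF-kB consensus was held by 3 genes (H2-D1, H2-K1 and B2m) and by 8.46% of all windows. A cyclic AMP response element half-site (TGACG) was present for 5 genes (H2-D1, H2-K1, B2m, Tap1 and Psmb9) and in 20.8% of all windows. A CCAAT box was present for 7 genes and in 37.4% of all windows. No match to one motif overlapped a match to another. These matches describe the letters of the windows and do not show that a factor binds there.

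The 4 libraries held between 82965565 and 86932708 counts. Npas3, the labelled target, had 2055 and 1386 counts in Npas3-/- libraries against 5129 and 8739 in WT libraries, counted over the whole gene (log2 fold change -1.82, SE 0.33, adjusted p = 0.0181, and in the corrected fit described below -0.57, adjusted p = 0.154, edgeR's quasi-likelihood test). Astrocyte markers summed to 4876 and 4879 CPM (counts scaled to TMM-adjusted library size) in Npas3-/- and to 3079 and 3901 CPM in WT. Gfap led in Npas3-/- and Slc1a3 in WT. Of 9 tested, 2 were called higher and 3 lower, and 2 and 2 in the corrected fit. Over all tested genes 11.6% were called higher and 21.5% lower, and 5.72% and 3.08% in the corrected fit. Gjb6 stood at 0 in both Npas3-/- libraries and S100b was under 100 counts in all 4. Oligodendrocyte-lineage markers summed to 1790 and 2186 CPM in Npas3-/- and 1640 and 1489 CPM in WT, mostly from Olig1. Of 6 tested, 1 was called higher and 1 lower, with 0 and 0 in the corrected fit, and Mog was at 0 in all 4. Fold changes across all genes followed transcript GC content: among genes of at least 1 CPM the median on the log2 scale was -2.46 at 40 to 42% GC and 0.66 at 54 to 56% GC. Each fold change of the class I genes is therefore also given from a fit with per-library splines in GC content and log2 transcript length, called the corrected fit below. That fit moved the median of all tested genes to 0.089, against -0.070 without it, and turned 2188 higher and 4044 lower calls into 1076 higher and 579 lower.

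Transcripts of 9 of the 10 class I genes were higher in Npas3-/- astrocytes, by 1.78-fold for Tap1 to 4.03-fold for H2-T23, and B2m was the exception. All 10 passed the filter on low counts. The calls were 9 higher and 0 lower, where 11.6% of 18838 tested genes were called higher and 21.5% lower (edgeR's quasi-likelihood test, Benjamini-Hochberg adjusted p below 0.05). With the correction 3 of the 10 were called higher, where 5.72% of tested genes were, and the folds were 1.19 for Tap1 and 2.52 for H2-T23. Without Npas3-/- replicate 2, 0 of the 10 and 0.0% of all genes were called. The median log2 fold change of the 10 genes with all 4 libraries and no correction was 1.45. For the 9 genes called without correction both Npas3-/- libraries lay above both WT libraries, which was so for 35.7% of tested genes. The 10 genes together took 0.370% and 0.442% of the counts in Npas3-/- libraries, against 0.198% and 0.215% in WT libraries. In such bulk samples, more cells that express a gene and more RNA per cell cannot be told apart.

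**Figure D1:**
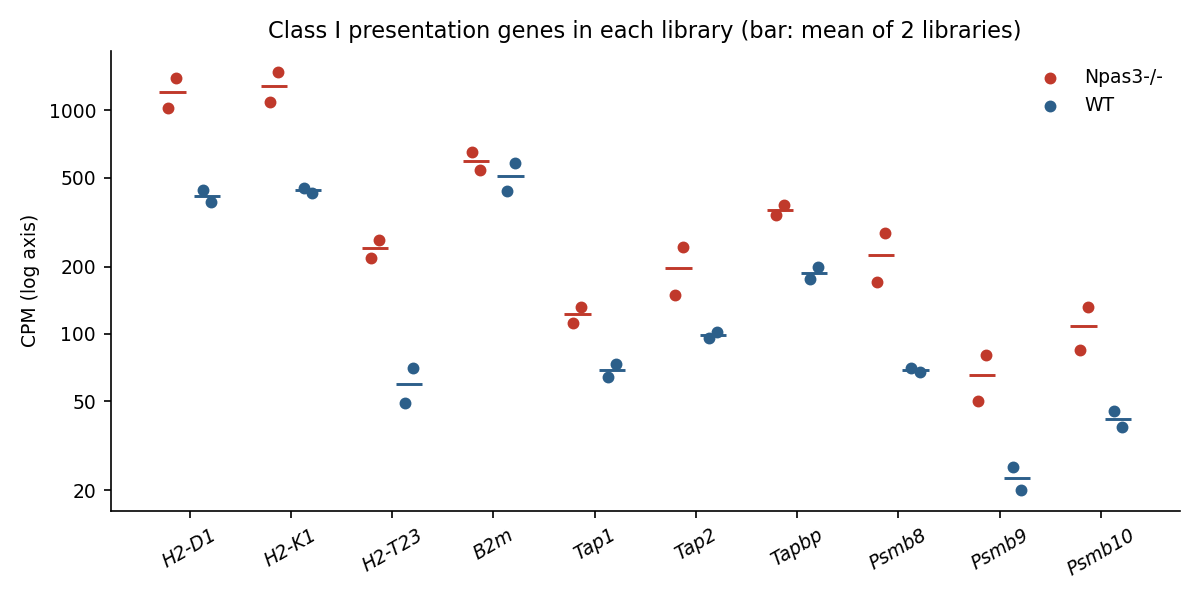
CPM of the 10 class I presentation genes on a log axis, with 1 point per library (Npas3-/- red and left, WT blue and right) and a bar at the mean of the 2 libraries. The genotypes are separated for every gene except B2m, whose points overlap.

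Among the heavy chains, H2-D1 and H2-K1 encode the classical class I molecules of this strain, and H2-T23 encodes the non-classical Qa-1. H2-D1 (ENSMUSG00000073411.11, chromosome 17, 35262730 to 35267499, plus strand) had 1019.7 and 1388 CPM in Npas3-/- libraries and 438 and 390.4 CPM in WT libraries (log2 fold change 1.54, SE 0.25; adjusted p = 0.0158, edgeR). H2-K1 (ENSMUSG00000061232.15, chromosome 17, 33996017 to 34000347, minus strand) had 1086 and 1488 CPM in Npas3-/- and 451 and 425 CPM in WT (log2 fold change 1.56, SE 0.25; adjusted p = 0.0155, edgeR). For both genes the gap between genotypes was wider than the spread within either, and Npas3-/- replicate 2 was the highest library. H2-T23 (ENSMUSG00000067212.8, chromosome 17, 36029773 to 36032855, minus strand) had 219 and 263 CPM in Npas3-/- and 49.2 and 70.3 CPM in WT (log2 fold change 2.01, SE 0.26; adjusted p = 0.0130, edgeR). H2-T23 had the largest log2 fold change of the 10 genes in this fit. Of the 100-base stretches of their longest coding transcripts, 4.64% in H2-D1 and 7.28% in H2-T23 also occur in transcripts of other genes, mainly class I relatives, and 0 in H2-K1. How reads shared between genes were counted is not given in the sources used here, so part of the H2-D1 and H2-T23 counts is uncertain.

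B2m (ENSMUSG00000060802.8, chromosome 2, 122147686 to 122153083, plus strand), the light chain that every class I heavy chain needs to reach the surface, did not follow the heavy chains. It had 650.2 and 539 CPM in Npas3-/- libraries and 435 and 584 CPM in WT libraries, and the genotypes overlapped. The log2 fold change was 0.22 (SE 0.25; adjusted p = 0.507, edgeR). Between the Npas3-/- replicates B2m also ran against the 3 heavy chains, being lower in replicate 2 than in replicate 1. Per transcript length, the summed level of H2-D1 and H2-K1 was 1.53 and 2.52 times that of B2m in Npas3-/- libraries, against 0.964 and 0.660 times in WT libraries. B2m has the lowest transcript GC content of the 10 genes, 41.2%, against 53.9% to 57.3% for the other 9. In the corrected fit B2m had the largest log2 fold change of the 10, 1.78 (SE 0.23, adjusted p = 0.0246, edgeR). H2-D1 and H2-K1 had 0.86 and 0.73 there, an order opposite to the shift of the uncorrected ratios above.

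**Figure D2:**
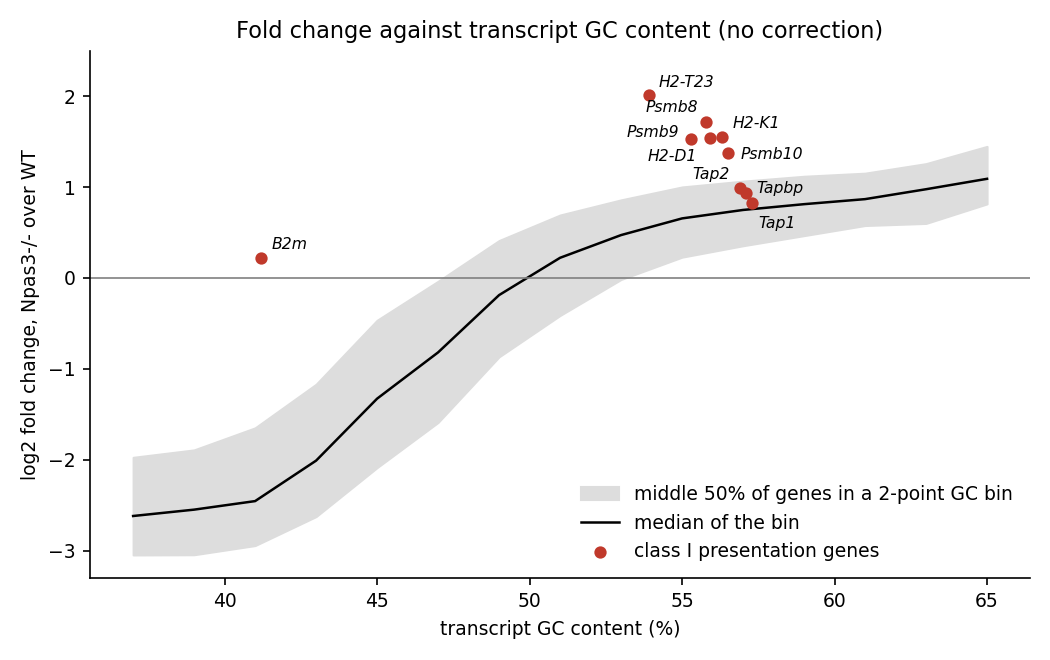
Log2 fold change of Npas3-/- over WT, without correction, against transcript GC content. The grey band and black line are the middle 50% and the median of genes with at least 1 CPM in bins of 2 percentage points, and red points are the 10 class I presentation genes. B2m, at 41.2% GC, had a log2 fold change of 0.22 where the median of its bin was -2.46, and Tap1, Tap2 and Tapbp lie inside the band.

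Without correction, the peptide loading genes had the smallest fold changes among the 9 genes that rose. Tap1 (ENSMUSG00000037321.17, chromosome 17, 34187553 to 34197225, plus strand) had 112 and 132 CPM in Npas3-/- and 64.0 and 73.3 CPM in WT (log2 fold change 0.83, SE 0.20; adjusted p = 0.0332, edgeR). Tap2 (ENSMUSG00000024339.12, chromosome 17, 34203527 to 34216321, plus strand) had 149.8 and 244 CPM in Npas3-/- and 96.1 and 102 CPM in WT (log2 fold change 0.99, SE 0.28; adjusted p = 0.0462, edgeR). The Tap2 rise rested more on Npas3-/- replicate 2, whose level was 0.71 log2 units above that of replicate 1. Tapbp (ENSMUSG00000024308.14, chromosome 17, 33915899 to 33929292, plus strand) had 339 and 378 CPM in Npas3-/- and 176 and 198 CPM in WT (log2 fold change 0.94, SE 0.20; adjusted p = 0.0250, edgeR). In the corrected fit these 3 genes had log2 fold changes of 0.25, 0.50 and 0.36 for Tap1, Tap2 and Tapbp, and none passed the threshold (adjusted p = 0.421, 0.223 and 0.252, edgeR).

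Without correction the immunoproteasome subunits rose more than the loading genes in point estimate, a difference that was not tested. In the corrected fit Psmb10 (log2 fold change 0.481) lay below Tap2 (0.498). Psmb8 (ENSMUSG00000024338.14, chromosome 17, 34197721 to 34201454, plus strand), the subunit with chymotrypsin-like activity, had 171 and 281 CPM in Npas3-/- and 70.2 and 67.5 CPM in WT (log2 fold change 1.72, SE 0.29; adjusted p = 0.0166, edgeR). Psmb9 (ENSMUSG00000096727.2, chromosome 17, 34181987 to 34187764, minus strand), which starts beside Tap1 and overlaps it in the annotation, so that without a known strand setting reads of the overlap cannot be told apart, had 49.8 and 80.7 CPM in Npas3-/- and 25.2 and 20.04 CPM in WT (log2 fold change 1.53, SE 0.31; adjusted p = 0.0231, edgeR). Psmb10 (ENSMUSG00000031897.9, chromosome 8, 105935735 to 105938444, minus strand) had 85.0 and 131 CPM in Npas3-/- and 45.1 and 38.4 CPM in WT (log2 fold change 1.37, SE 0.28; adjusted p = 0.0226, edgeR). In all 3 genes Npas3-/- replicate 2 lay above replicate 1 by more than the WT libraries differed from each other. In the corrected fit the log2 fold changes of Psmb8, Psmb9 and Psmb10 were 0.91, 0.73 and 0.48, and none passed the threshold (adjusted p = 0.0523, 0.0729 and 0.116, edgeR).

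Their constitutive counterparts were higher in Npas3-/- as well. Psmb5, which Psmb8 replaces, averaged 316 ± 151 CPM in Npas3-/- and 109.5 ± 37.7 CPM in WT (SD, n = 2 each; log2 fold change 1.53, adjusted p = 0.0438, edgeR), and Psmb6, which Psmb9 replaces, averaged 301 ± 90.3 CPM in Npas3-/- and 119 ± 38.1 CPM in WT (log2 fold change 1.34, adjusted p = 0.0350, edgeR). Psmb7, the counterpart of Psmb10, averaged 284 ± 72.2 CPM in Npas3-/- and 141 ± 38.5 CPM in WT (log2 fold change 1.0044, adjusted p = 0.0506, edgeR) and just missed the threshold. In the corrected fit Psmb7 passed (1.07, adjusted p = 0.0472), and Psmb5 and Psmb6 did not (0.56 and 0.44, adjusted p = 0.196 and 0.193, edgeR). The balance between induced and constitutive subunits was read from the ratio of their levels per transcript length (TPM) within a library. Psmb8 stood at 0.452 and 0.367 of the Psmb5 level in Npas3-/- libraries and at 0.284 and 0.450 in WT libraries, and the genotypes overlapped. Psmb9 stood at 0.124 and 0.131 of Psmb6 in Npas3-/- and 0.102 and 0.128 in WT. Psmb10 stood at 0.323 and 0.348 of Psmb7 in Npas3-/- and at 0.237 and 0.298 in WT, with no overlap. On the log2 scale the ratios differed by 0.19, 0.15 and 0.34 between Npas3-/- and WT, with exact two-sided permutation p = 0.667, 0.667 and 0.333, where 0.333 is the smallest p that 2 samples against 2 can give. Without WT replicate 1 the first of these differences was -0.14 and the next -0.011. The ratios carry no correction for GC content, which was 56.5% for Psmb10 and 48.7% for Psmb7. In the corrected fit Psmb7 rose more (log2 fold change 1.07) than Psmb10 (0.48), the reverse of the ratio. Psmb8 (0.91) and Psmb9 (0.73) stayed above Psmb5 (0.56) and Psmb6 (0.44) in that fit. For Psmb5, 24.9% of the 100-base stretches occur in transcripts of other genes, so its counts are uncertain.

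**Figure D3:**
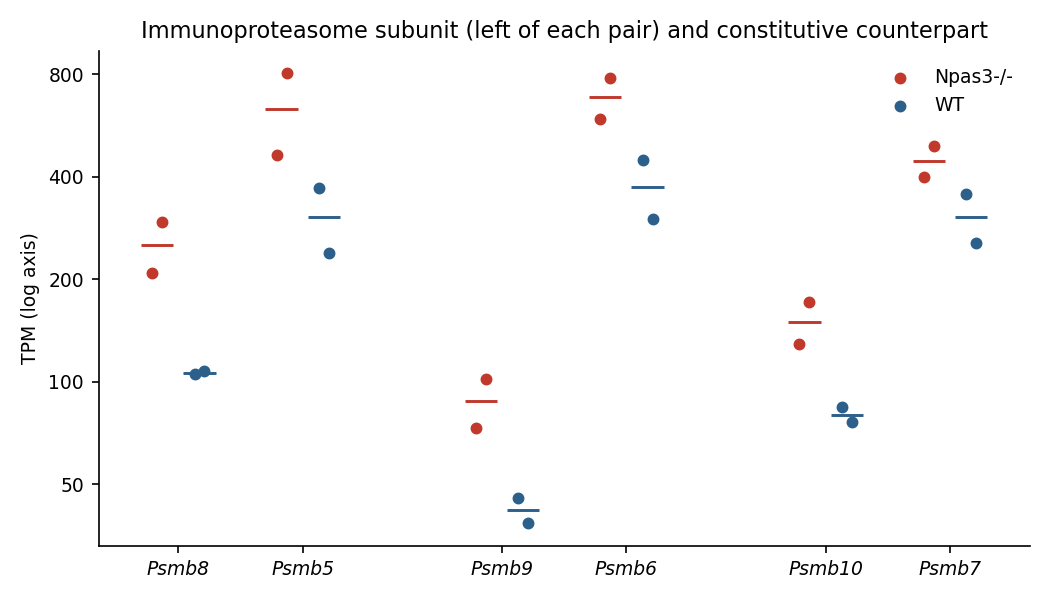
TPM on a log axis of each immunoproteasome subunit (left of each pair) and of its constitutive counterpart (right), with 1 point per library (Npas3-/- red and left, WT blue and right) and a bar at the mean. Both members of each pair lie higher in the Npas3-/- libraries, and the constitutive subunit lies above the induced one in every library.

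Levels per transcript length placed B2m and the classical heavy chains far above the processing genes in both genotypes. In Npas3-/- libraries H2-K1 averaged 1452 ± 168 TPM, B2m 1286 ± 306 TPM and H2-D1 1046 ± 116 TPM, and neighbours in this order overlapped. In WT libraries the order was B2m at 1498 ± 371 TPM, H2-K1 at 681 ± 0.429 TPM and H2-D1 at 496 ± 19.4 TPM, without overlap (SD, n = 2 each). B2m was thus the most abundant of the 10 in WT and shared the top with the heavy chains in Npas3-/-. These levels carry no correction for GC content. In the corrected fit B2m had a larger log2 fold change (1.78) than H2-D1 (0.86) and H2-K1 (0.73). The middle ranks were held in Npas3-/- by H2-T23 (300.4 TPM), Psmb8 (252 TPM), Tapbp (228 TPM) and Psmb10 (150.1 TPM), and in WT by Tapbp (163 TPM), Psmb8 (106 TPM), H2-T23 (103 TPM) and Psmb10 (80.05 TPM). Psmb8 and Tapbp overlapped in Npas3-/-, while Psmb8, H2-T23, Psmb10 and Tap2 overlapped with their neighbours in WT. The lowest were Tap2 (104 TPM), Psmb9 (87.7 TPM) and Tap1 (75.9 TPM) in Npas3-/-, overlapping, and Tap2 (72.6 TPM), Tap1 (58.7 TPM) and Psmb9 (42.05 TPM) in WT, where only Tap2 overlapped with a neighbour above it. With the union of annotated exons as length, H2-D1 stood above H2-K1 (1195 against 1121 TPM in Npas3-/-, and 548 against 509 TPM in WT), B2m led in both genotypes (1802 and 2029 TPM), and Psmb9 was at 45.4 TPM in Npas3-/- and 21.1 TPM in WT.

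In the corrected fit 3 of the 10 genes were called higher and 0 lower, where 5.72% of 18817 tested genes were called higher and 3.08% lower. These were B2m, H2-T23 (log2 fold change 1.33, SE 0.26; adjusted p = 0.0384, edgeR) and H2-D1 (log2 fold change 0.86, SE 0.17; adjusted p = 0.0408, edgeR). H2-K1, at 0.73 (SE 0.17; adjusted p = 0.0539, edgeR), and Psmb8 missed the threshold narrowly. The median of the 10 genes was 0.73. Every one of the 10 had a positive log2 fold change in both fits and in all alternatives tried. The correction raised the value of B2m and lowered those of the other 9. With the splines fitted only over genes of at least 1 CPM, an alternative added after the data were seen, B2m alone was called (4.54% of all genes were called higher). Single libraries also decided calls. Without Npas3-/- replicate 2, edgeR called 0 of the 10 genes and 0 of all genes tested in either direction (0.0%), and at an unadjusted p below 0.05 it called 7 of the 10 and 28.2% of all genes. Without Npas3-/- replicate 1, without WT replicate 1 and without WT replicate 2 it called 6, 6 and 4 of the 10 higher, where 2.5%, 9.93% and 2.47% of all genes were, and H2-D1, H2-K1, H2-T23 and Psmb8 were among them each time. In the corrected fit 0 of the 10 and 0 of all genes were called in either direction without Npas3-/- replicate 1, and likewise without Npas3-/- replicate 2. At an unadjusted p below 0.05 it called 8 of the 10 without replicate 1 and 5 without replicate 2, where 21.9% and 18.1% of all genes passed. Without WT replicate 1 the corrected fit called 3 of the 10 and 7.59% of all genes higher, and without WT replicate 2 it called 2 of the 10 and 2.46%. DESeq2 and limma-voom each called the same 9 genes as edgeR with all 4 libraries, where they called 18.7% and 12.3% of all genes higher.

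**Figure D4:**
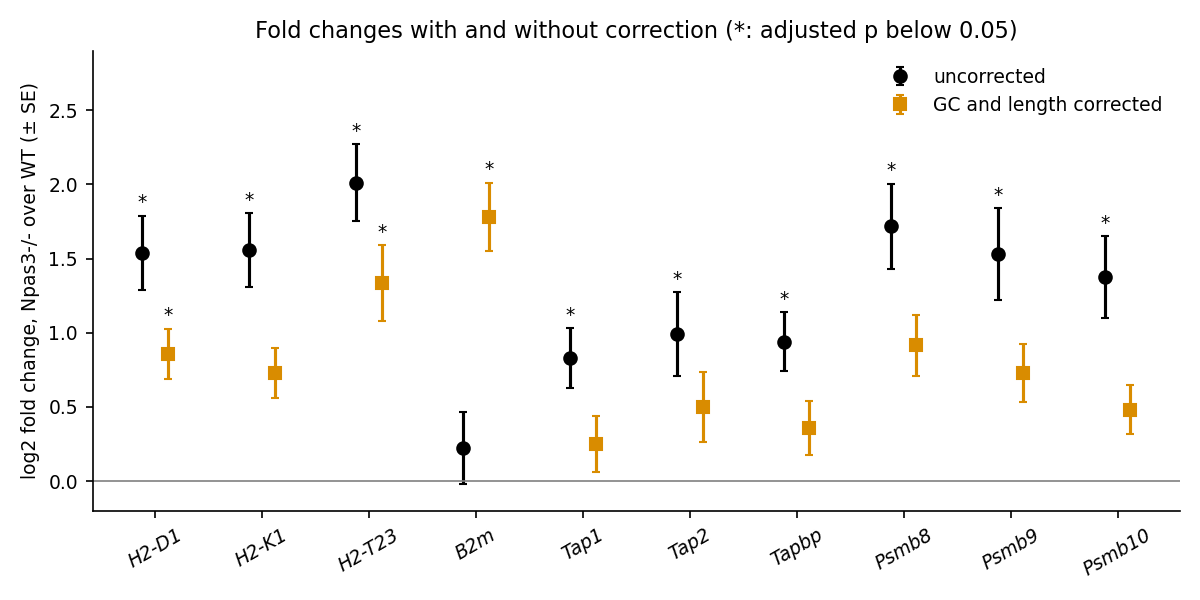
Log2 fold change of Npas3-/- over WT with its SE for the 10 class I presentation genes, without correction (black circles) and with the correction for GC content and length (orange squares). Asterisks mark an adjusted p below 0.05 (edgeR). The correction lowers 9 genes and raises B2m to 1.78.

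Beside the counts of this and the following lists stand the shares over all tested genes. These were 11.6% called higher and 21.5% lower, and 5.72% and 3.08% in the corrected fit. Other class I pathway genes, 58 in 4 lists, went both ways, with 14 of 54 tested higher and 9 lower in Npas3-/- and 6 higher and 1 lower in the corrected fit. Without Npas3-/- replicate 2 edgeR called 0 of them, without Npas3-/- replicate 1 it called 5 higher and without WT replicate 2 it called 9 higher. Among 15 tested heavy chains outside the 10 genes, 6 rose and 1 fell. H2-T22, a non-classical heavy chain, had 252 and 286 CPM in Npas3-/- and 95.8 and 111 CPM in WT (log2 fold change 1.38, adjusted p = 0.0140, edgeR), and passed in the corrected fit too (1.04, adjusted p = 0.0305, edgeR). H2-Q4 averaged 339 ± 69.6 CPM in Npas3-/- and 126 ± 7.27 CPM in WT (log2 fold change 1.43), and Fcgrt, the neonatal Fc receptor, 99.8 ± 21.6 CPM in Npas3-/- and 34.9 ± 6.95 CPM in WT (log2 fold change 1.51). Mr1, which presents vitamin metabolites to T cells and was the 1 gene that fell, was named after its value was seen: it had 8.41 and 4.88 CPM in Npas3-/- and 20.2 and 36.2 CPM in WT (log2 fold change -2.09, adjusted p = 0.0244, edgeR). Neither H2-Q4, Fcgrt nor Mr1 passed in the corrected fit. The median log2 fold change of this list was 0.97. Several of these genes share sequence, 14.2% of the 100-base stretches in H2-T22 and 2.66% in H2-Q4, so their counts are uncertain.

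Among 8 genes of loading and trimming 2 rose and 4 fell, and the list's median log2 fold change was -1.38. Canx, the calnexin gene, whose product holds newly made heavy chains, fell to 153 ± 25.5 CPM in Npas3-/-, against 654 ± 151 CPM in WT (log2 fold change -2.09, adjusted p = 0.0130, edgeR). The peptidase gene Tpp2 fell to 7.82 and 5.38 CPM in the Npas3-/- libraries, against 27.9 and 56.1 CPM in WT, and the peptidase gene Lnpep to 7.13 and 3.17 CPM, against 37.2 and 97.5 CPM in WT. These transcripts have 40.3% to 42.2% GC, and in the corrected fit the log2 fold changes were -0.051 for Canx, -0.38 for Tpp2 and -0.85 for Lnpep, none past the threshold. Calr, the calreticulin gene of the loading complex, named after its value was seen, rose with and without the correction, by log2 fold changes of 0.98 and 0.99 uncorrected and corrected (adjusted p = 0.0314 and 0.0351, edgeR). In the list of proteasome counterparts and activators 4 of 7 rose and 1 fell, and the median of their log2 fold changes was 1.22. Psme1, which encodes a subunit of the interferon-inducible activator PA28, averaged 158 ± 3.06 CPM in Npas3-/- and 68.0 ± 0.666 CPM in WT (log2 fold change 1.22, adjusted p = 0.0140, edgeR), and its partner Psme2 110.3 ± 34.1 CPM in Npas3-/- and 46.5 ± 8.79 CPM in WT (log2 fold change 1.25). Psme4, the gene of another activator, fell to 6.66 ± 1.85 CPM in Npas3-/-, against 40.1 ± 20.5 CPM in WT. None of these 3 passed in the corrected fit, where Psmb7 was the only call of the list (log2 fold change 1.07, adjusted p = 0.0472, edgeR).

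**Figure D5:**
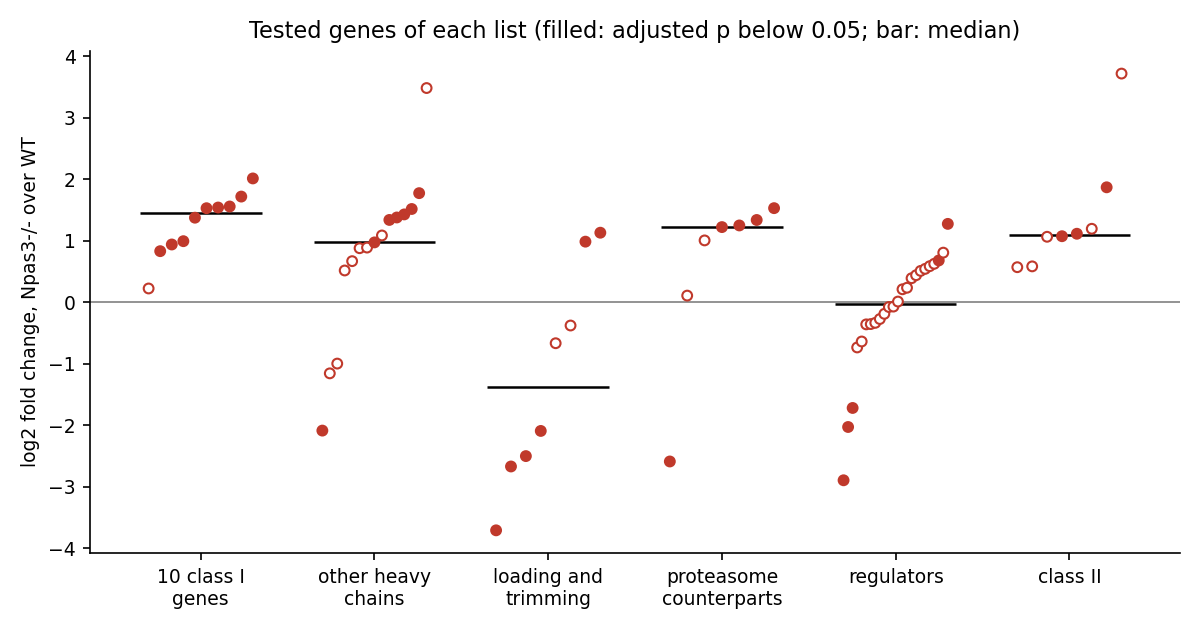
Log2 fold change of Npas3-/- over WT, without correction, for every tested gene of the 10 class I genes and of 5 related lists, with filled points at an adjusted p below 0.05 (edgeR) and a bar at the list's median. The class I genes all lie above 0, and the loading and trimming list reaches from -3.71 to 1.13.

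Of 24 regulators of class I transcription, 2 were called higher and 3 lower, where 11.6% and 21.5% of all tested genes were. The median log2 fold change of the 24 regulators was -0.030. The kinase genes Jak1 and Jak2, which pass on interferon signals, fell to 27.4 ± 9.21 and 4.23 ± 1.09 CPM in Npas3-/-, against 112 ± 25.6 and 31.4 ± 14.5 CPM in WT (log2 fold changes -2.03 and -2.89, adjusted p = 0.0155 and 0.0145, edgeR). Nfyb, a subunit of the factor that binds CCAAT boxes, fell to 9.36 ± 0.542 CPM in Npas3-/-, against 30.8 ± 1.78 CPM in WT (log2 fold change -1.72). Jak1 also passed in the corrected fit (-1.04, adjusted p = 0.0493, edgeR), where Jak2 (-1.06, adjusted p = 0.0578) and Nfyb (0.14, adjusted p = 0.786, edgeR) did not. Nlrc5, the transactivator of class I genes, was not among the calls, with 16.4 and 14.2 CPM in Npas3-/- and 22.5 and 28.3 CPM in WT (log2 fold change -0.74, adjusted p = 0.0776, edgeR). Irf1, which carries interferon signals to class I promoters, had 50.7 and 61.5 CPM in Npas3-/- and 36.4 and 40.8 CPM in WT (log2 fold change 0.54, adjusted p = 0.105, edgeR). Nlrc5 and Irf1 were named after their values were seen.

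Class II presentation genes, which serve professional antigen-presenting cells, were much lower in level and 3 of 8 tested rose (0 in the corrected fit, 1 at an unadjusted p below 0.05). H2-Ab1 averaged 11.0 ± 0.412 CPM in Npas3-/- and 3.02 ± 0.376 CPM in WT (log2 fold change 1.87, adjusted p = 0.0167, edgeR), and H2-DMa 21.7 ± 1.74 CPM in Npas3-/- and 10.3 ± 0.584 CPM in WT. H2-DMb1, the partner of H2-DMa, averaged 12.2 ± 0.350 CPM in Npas3-/- and 5.66 ± 1.11 CPM in WT. Of 15 microglia and macrophage markers 14 were tested, and without correction 0 were called by edgeR, DESeq2 or limma-voom (2, 3 and 3 higher at an unadjusted p below 0.05). Their median log2 fold change was 0.76. Their summed level was 77.4 and 77.6 CPM in Npas3-/- and 54.3 and 57.6 CPM in WT. Ptprc, the common leukocyte gene, had 8 counts in Npas3-/- replicate 1 and 0 in the other libraries. Over all 18838 tested genes, both Npas3-/- libraries lay above both WT libraries for 6730 and below them for 7557. Among the 14 tested markers they lay above for 7 and below for 2. The 2 were P2ry12 (16 and 4 counts in Npas3-/-, 34 and 71 in WT) and Cd68 (516 and 363 counts in Npas3-/-, 569 and 788 in WT), named after their values were seen. The part of such cells in the class I values was not tested. Lymphocyte markers summed to at most 0.410 CPM in Npas3-/- and 0.406 CPM in WT, with Cd3e, Cd3g and Ms4a1 at 0 in all 4 libraries and neither of 2 tested called. Endothelial markers summed to 20.7 and 15.2 CPM in Npas3-/- and 16.3 and 14.2 CPM in WT, and without correction 0 of 5 tested were called by any of the 3 tools, also at an unadjusted p below 0.05 (in the corrected fit 0, and 1 at an unadjusted p below 0.05). Fibroblast and meningeal markers summed to 331.5 and 395 CPM in Npas3-/- and 429 and 372 CPM in WT, with 2 of 7 tested lower. Neuron markers summed to 74.0 and 85.6 CPM in Npas3-/- and 93.8 and 80.2 CPM in WT, with 3 of 6 tested lower.

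The profile of H2-D1 over the 4 libraries was closest to that of H2-K1 among all 18838 tested genes, by Euclidean distance between centred log2 CPM (0.058). Outside the lists, the nearest genes of at least 5 CPM were Ogfod2 (0.060), Rras (0.074), Klhdc8b (0.086), Rpl11 (0.103) and Ccdc107 (0.103). Among the other class I genes the distance was 0.22 for Psmb9, 0.24 for Psmb8 and 0.25 for Psmb10, between 0.64 and 0.77 for Tap2, Tapbp, H2-T23 and Tap1, and 1.44 for B2m. Transcripts of the 5 genes outside the lists had 52.9% to 58.6% GC, against 55.9% for H2-D1, and likeness over 4 libraries is a description only.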

How the data were processed

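RNA-seq of 4 samples was deposited by the authors as 1 table of raw counts per gene. The submitters' processing notes name the trimmer Trimmomatic (0.3.8), the aligner HISAT2 (2.1.0), the counter featureCounts and the mouse build mm10. For annotation release, strand setting and treatment of shared reads nothing is given in the sources used here. Reads could therefore be shared with overlapping genes, which 8 of the 10 class I genes have in the annotation. Columns were matched to samples by name and title. Identifiers were matched to GENCODE M21 (53274 of 53379).

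The 10 genes, the lists and the tests were chosen with earlier results of these data known. Counts were tested with edgeR 4.0.16 (R 4.3.3), TMM, filterByExpr at a minimum count of 10, glmQLFTest, 2 residual degrees of freedom and Benjamini-Hochberg adjustment over all tested genes at 0.05. SE is the log2 fold change over the square root of F. TPM used the longest coding transcript. The corrected fit entered natural splines of 6 degrees of freedom in GC content and in log2 length, fitted per library to deviations of log2 CPM (pseudocount 2), as offsets; it also removes any true difference that follows these properties. Genes named were the 10, the 3 of smallest p in each related list, the proteasome counterparts, Npas3, the most abundant markers and the 5 nearest profiles.

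Alternatives were DESeq2 1.42.0 (test and size factors), limma-voom 3.58.1, other filters, a replicate block, leaving out each library, splines of 3 degrees of freedom and exon-union lengths. The fits were also run on simulated counts, with dispersions taken from the uncorrected fit of the real counts. With no GC trend simulated, the uncorrected fit recovered 0% of 2-fold and 46% of 4-fold changes. With a GC trend simulated, 117 of 17922 unchanged genes were called without the correction and 10 with it. Values of some single genes on the lists are not reported here.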

Additional observations from a re-analysis of the deposited data

How the results depend on the processing

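The 9 higher calls among the class I genes were 9 again with DESeq2 size factors (12.7% of all genes called higher), a filter of 5 CPM on average (20.9%), DESeq2's test and limma-voom, and 7 with no filter (3.77%), where Tap1 and Tap2 were not called. The count was 3 with the GC and length correction, and between 0 and 6 when single libraries were left out. With the correction as the starting point it was 1 with splines fitted over genes of at least 1 CPM, 4 with splines of 3 degrees of freedom (7.12%), and between 0 and 3 when libraries were left out. All log2 fold changes stayed positive, with that of B2m between 0.0076 and 0.44 in the alternatives without the correction and between 1.501 and 2.05 in those with it. The other pathway genes, 14 higher and 9 lower, had 7 higher with no filter, 6 higher and 1 lower with the correction, and 0 to 12 higher and 0 to 10 lower when libraries were left out, the zeros without Npas3-/- replicate 2. The log2 ratio differences of Psmb8 over Psmb5, Psmb9 over Psmb6 and Psmb10 over Psmb7 ranged from -0.14 to 0.52, -0.011 to 0.32 and 0.17 to 0.50 without single libraries (exon-union lengths cancel in these differences), the negative ones without WT replicate 1. These ratios carry no correction for GC content, and in the corrected fit Psmb7 rose more than Psmb10. The cause of the changes between settings was not tested.

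Whether same-numbered samples are pairs is not given in the labels. Deviations of same-numbered libraries correlated at -0.279 across 14372 genes, which cannot settle the pairing because each genotype has only 2 libraries. With a replicate block 4 of the class I genes (H2-D1, H2-K1, H2-T23 and Psmb8) and 6 other pathway genes were called higher, where 1.67% of all genes were; with block and correction the class I count was 3 (4.1%). A crossed block, added after the data were seen, called 9 without (17.7%) and 4 with the correction (8.04%). With 2 libraries a genotype, a missed call does not show that a gene did not differ. Leaving out 1 library leaves 1 in its genotype, which is then assumed to vary like the other genotype.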
